A study of Mus musculus with 4 samples.

Results

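Glul, Axin2, Lgr5, Cyp2e1, Oat, Slc1a2, Rhbg, Tbx3 and Gulo are genes that hepatocytes (HCs) around the central vein of the liver lobule are known to express under beta-catenin signaling. They were chosen by symbol from the 55488 genes measured, so the set holds 9 genes. The data were 10x single-cell 3' UMI counts of primary liver cells from 4 mice, 1 mouse and 1 library per genotype. WT mice were genetically unmodified, YAPKO mice carried floxed Yap alleles, TAZKO mice floxed Taz alleles and DKO mice both, each with an Alb-Cre transgene. The albumin promoter drives Cre in HCs and biliary epithelial cells (BECs), so other liver cells kept their alleles. No mouse was treated, the labels give no age for these animals, and HCs and non-parenchymal cells were isolated separately and mixed at 3:7.

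Wnt ligands and R-spondins made by endothelial cells of the central vein keep beta-catenin stable in the adjacent HCs. Beta-catenin then acts with TCF/LEF factors on genes of glutamine synthesis, ammonium uptake and xenobiotic metabolism, and on feedback genes of the pathway itself. HCs near the portal tract instead express genes of urea synthesis and gluconeogenesis, so the position of an HC along the lobule can be read from its transcripts.

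The libraries held 13657 barcodes in WT, 7711 in YAPKO, 14418 in TAZKO and 9188 in DKO, with 66259687, 85989454, 49022089 and 77411746 UMIs. Barcodes with 500 to 6000 genes and mitochondrial UMIs of at most 10% numbered 7155, 6275, 8638 and 8294. HCs, defined by Alb, Apoa1, Ttr and Apoc3 making up at least 3% of the UMIs of a barcode, numbered 2254 in WT, 1159 in YAPKO, 3112 in TAZKO and 2925 in DKO. The HC rule was met by cells of unequal depth. Their median was 2166.5 UMIs in WT, 6457 in YAPKO, 1854.5 in TAZKO and 6475 in DKO. WT and TAZKO also held more barcodes with fewer than 500 genes, 6237 and 5465, than YAPKO with 941 and DKO with 676. Any pair of libraries shared 10 to 67 barcode sequences, and 0 to 5 of these were HCs in both.

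The HC label was checked on genes that the rule did not use. Levels are UMIs per 1000000 UMIs of the HCs of a library, abbreviated CPM. Fabp1, the fatty acid binding protein of HCs, reached 23831 CPM in WT HCs, 16828 in YAPKO, 17725 in TAZKO and 15084 in DKO. Transferrin (Trf) reached 7176, 11155, 8297 and 9783 CPM. Both genes, from a list of 8, were abundant in every library. The genotype labels were checked on the deleted genes, although 3' tags can lie outside a deleted exon. Yap1 was at 21.2 CPM in WT HCs, 4.55 in YAPKO, 46.3 in TAZKO and 4.67 in DKO. Wwtr1, the gene of TAZ, was at 5.58, 13.5, 3.34 and 2.89 CPM. Each gene was lowest in the libraries labelled with its deletion.

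Levels were given exact Poisson intervals and ratios to WT exact binomial intervals, at 95%, and no interval covers more than counting error. Each genotype was 1 mouse, so differences between genotypes and between animals cannot be told apart. The median gene of the 11284 with at least 100 UMIs in HCs was above WT by 0.40 on the log2 scale in YAPKO, 0.62 in TAZKO and 0.46 in DKO. Mup20, a major urinary protein picked after its values were seen, took 74485 CPM in WT, 42639 in YAPKO, 7018 in TAZKO and 41688 in DKO. The part of Mup20 in the shift of the median gene was not tested. Because the median gene lay above WT, relative ratios below are log2 ratios to WT minus that of the median gene. A gene was called higher or lower past 2-fold, a relative ratio of 1 or -1. By this rule 293 genes were higher and 261 lower in YAPKO, against 817 and 109 with total UMIs alone. In TAZKO the counts over all tested genes were 574 and 744, against 2705 and 187, and in DKO 598 and 517, against 1491 and 237. Of the 8 genes of the HC check, 0 were past 2-fold in YAPKO, 1 was lower in TAZKO and 2 were lower in DKO.

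Of the 9 genes, 7 had at least 100 UMIs in HCs. Axin2 with 59 and Lgr5 with 30 were not called. In YAPKO 6 of the 7 called genes were higher, where 2.6% of all tested genes were, and 0 were lower, where 2.31% were. In TAZKO 5 of 7 were higher, against 5.09% of all tested genes, and 0 were lower, against 6.59%. In DKO 5 of 7 were higher, against 5.3%, and 0 lower, against 4.58%. The median relative ratio of the 7 was 1.55 in YAPKO, 2.11 in TAZKO and 1.32 in DKO, and that of all tested genes is 0 by construction. With total UMIs alone 6 of 7 were higher in each knock-out library. With an HC rule of 10% 0, 1 and 2 of 3 tested genes were higher in YAPKO, TAZKO and DKO, and after thinning each HC to 2000 UMIs 3, 3 and 1 of 5. These counts are no support for a change, because Oat, Slc1a2, Rhbg and Tbx3 held 56, 6, 8 and 12 UMIs in WT HCs and passed the limit of 100 through the knock-out libraries. Leaving out of each knock-out library the HC with the most UMIs of the gene, a choice made after seeing the data, gave 6, 4 and 4 higher genes of the 7. All comparisons share the WT library.

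**Figure D1:**
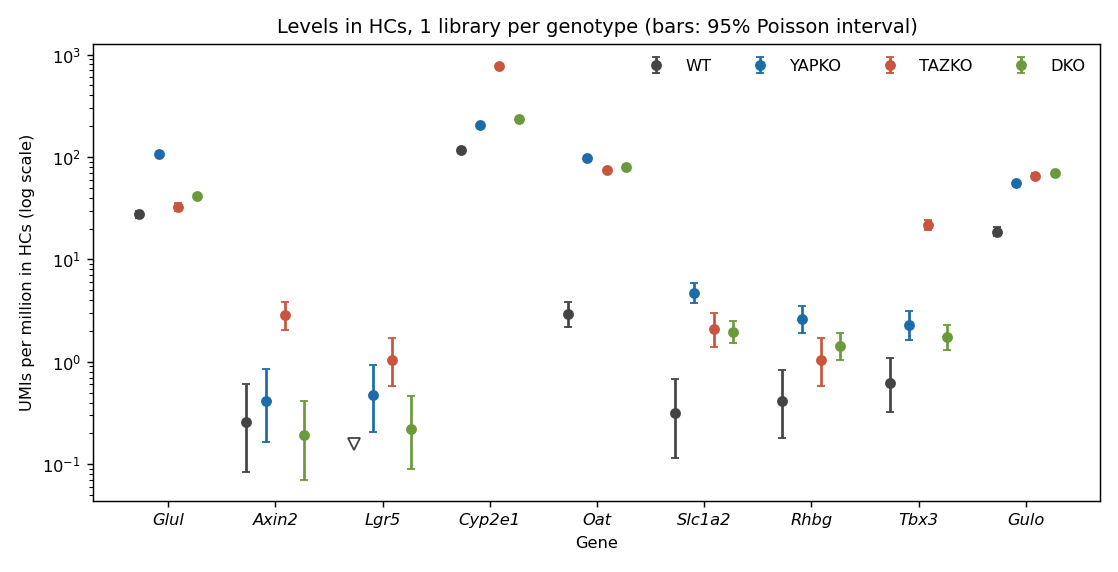
Level of each gene in HCs of the 4 libraries, in CPM on a log scale, with 95% Poisson intervals; the open triangle marks the floor of 3 counts for Lgr5 in WT, which had 0 UMIs. The WT points lie lowest for 8 of the 9 genes, the exception being Axin2.

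The RefSeq windows of 300 bases, 250 before to 50 after the annotated start, were searched for the TCF/LEF core CTTTGA on both strands (TCAAAG on the other). Of the 9 genes 5 were matched in the RefSeq table, Glul, Axin2, Oat, Cyp2e1 and Slc1a2; Lgr5, Rhbg, Tbx3 and Gulo were not. The core was in 2 of the 5, Cyp2e1 and Slc1a2, and in 5257 of all 32851 windows of this length (16.0%). A match is a description and not a binding site, and the lack of one says only that these letters are not in the window. Capitals mark the core in the windows of 4 of the matched genes, whose levels are described next, on GRCm38.p6: Glul at chr1:153899679-153899978 on the + strand, Oat at chr7:132576349-132576648 on the - strand, Cyp2e1 at chr7:140763569-140763868 on the + strand and Slc1a2 at chr2:102706188-102706487 on the + strand.
Glul: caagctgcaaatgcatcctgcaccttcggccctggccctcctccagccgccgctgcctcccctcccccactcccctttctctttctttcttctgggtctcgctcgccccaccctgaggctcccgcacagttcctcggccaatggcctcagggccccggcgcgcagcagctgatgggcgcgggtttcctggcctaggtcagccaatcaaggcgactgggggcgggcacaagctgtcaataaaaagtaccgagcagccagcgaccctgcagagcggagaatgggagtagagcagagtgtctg
Oat: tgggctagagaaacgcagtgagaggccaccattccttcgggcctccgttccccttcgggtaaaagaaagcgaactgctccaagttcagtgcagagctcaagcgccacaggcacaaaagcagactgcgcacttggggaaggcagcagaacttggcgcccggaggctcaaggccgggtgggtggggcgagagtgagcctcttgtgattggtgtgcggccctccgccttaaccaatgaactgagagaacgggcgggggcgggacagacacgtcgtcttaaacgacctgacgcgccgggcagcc
Cyp2e1: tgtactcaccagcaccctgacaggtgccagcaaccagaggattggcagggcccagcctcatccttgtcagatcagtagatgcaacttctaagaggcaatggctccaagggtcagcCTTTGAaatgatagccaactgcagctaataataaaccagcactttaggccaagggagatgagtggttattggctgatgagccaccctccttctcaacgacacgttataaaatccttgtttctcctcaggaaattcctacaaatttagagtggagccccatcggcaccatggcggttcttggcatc
Slc1a2: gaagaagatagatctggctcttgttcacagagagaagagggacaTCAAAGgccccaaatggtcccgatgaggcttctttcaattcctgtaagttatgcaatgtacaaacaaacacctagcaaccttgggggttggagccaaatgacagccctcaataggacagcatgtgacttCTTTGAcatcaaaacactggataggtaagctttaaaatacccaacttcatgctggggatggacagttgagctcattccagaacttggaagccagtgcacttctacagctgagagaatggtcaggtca
The Cyp2e1 match began at position -135 from the start, and the Slc1a2 matches at -206 and -77. The first Slc1a2 match was also the longer form ATCAAAG, read as CTTTGAT on the other strand, which 1225 of all windows held (3.73%). The Slc1a2 and Cyp2e1 windows follow RefSeq starts that lie within the GENCODE genes, which span chr2:102658659-102790784 and chr7:140763739-140774987. The positions of the matches are counted from these RefSeq starts.

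Glul (ENSMUSG00000026473, chr1:153899944-153909723) encodes glutamine synthetase, the enzyme by which the HCs next to the central vein bind ammonium that escaped urea synthesis. HCs held 526 Glul UMIs in WT, 1795 in YAPKO, 470 in TAZKO and 1307 in DKO. The Glul level was 27.4 CPM in WT, 106 in YAPKO, 32.7 in TAZKO and 41.6 in DKO. YAPKO was the high library, and DKO, TAZKO and WT followed, each step beyond counting error. In DKO 1 HC of 26864 UMIs held 324 of the 1307 Glul UMIs, and without it, a choice made after seeing the data, the DKO level was 31.3 CPM, below TAZKO. The relative ratio of Glul to WT was 1.55 (1.41 to 1.70) in YAPKO. In TAZKO it was -0.37 and in DKO 0.14 (-0.00 to 0.29), both within 2-fold, and without that HC the DKO ratio was -0.27 (-0.42 to -0.11). The TAZKO ratio was 0.25 before the median gene was subtracted. In HCs of at least 8000 UMIs, a choice made after seeing the data, the YAPKO value was 0.88 relative to the median gene and no longer past 2-fold, as with an HC rule of 10% (0.30).

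Shares of cells with a Glul UMI were read against B cells of the same library. Glul was detected in 12.7% of WT, 43.7% of YAPKO, 10.5% of TAZKO and 21.3% of DKO HCs. In B cells, with medians of 2923, 2867, 2789 and 2147 UMIs, the shares were 11.3%, 14.6%, 7.20% and 11.9%. After thinning to 2000 UMIs, which left out 935, 144, 1679 and 334 HCs, the HC shares were 3.71%, 14.6%, 6.84% and 5.17%. Thinned B cells, of which 18, 25, 50 and 104 were left out, gave 5.51%, 9.61%, 4.47% and 10.7%. At equal depth, WT and DKO HCs were thus at or below the B cell share. YAPKO and TAZKO HCs were above it, in each library by intervals that overlap.

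Oat (ENSMUSG00000030934, chr7:132557478-132576398) encodes ornithine aminotransferase, a mitochondrial enzyme that turns ornithine into a precursor of glutamate in HCs around the central vein. Its HC level was 2.92 CPM in WT, 96.7 in YAPKO, 74.0 in TAZKO and 80.2 in DKO. The 3 knock-out libraries were close to each other and all far above WT. Relative ratios of Oat were 4.65 (4.27 to 5.06) in YAPKO, 4.04 (3.65 to 4.45) in TAZKO and 4.32 (3.94 to 4.73) in DKO. They were the highest of the 7 called genes in YAPKO and DKO, and second to Tbx3 in TAZKO. B cells held 59.6 CPM of Oat in WT, 79.1 in YAPKO, 43.9 in TAZKO and 51.3 in DKO. WT HCs lay below the B cells of the same library in level, and HCs of the knock-out libraries above theirs. Without the Glul-rich HCs described below the YAPKO HC level was 25.0 CPM, below its B cells. Oat was detected in 1.95% of WT, 13.3% of YAPKO, 18.7% of TAZKO and 18.9% of DKO HCs, and in 18.5%, 20.2%, 12.2% and 13.8% of B cells. Thinned to 2000 UMIs, the HC shares were 0.607%, 5.91%, 13.7% and 7.87%, and the B cell shares 9.77%, 12.3%, 7.93% and 7.44%. YAPKO HCs were thus below B cells in share at both depths.

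Slc1a2 (ENSMUSG00000005089) encodes a glutamate transporter of the plasma membrane. HCs held 6 Slc1a2 UMIs in WT, 80 in YAPKO, 30 in TAZKO and 62 in DKO, levels of 0.313, 4.73, 2.09 and 1.97 CPM. YAPKO was highest, and TAZKO and DKO did not differ beyond counting error. The relative ratio was 3.52 (2.33 to 5.01) in YAPKO, 2.12 (0.83 to 3.67) in TAZKO and 2.20 (1.00 to 3.70) in DKO. Single HCs held 18 of the 80 UMIs in YAPKO, 18 of the 30 in TAZKO and 23 of the 62 in DKO. Without them, chosen after seeing the data, the ratios were 3.16, 0.80 and 1.53 (0.28 to 3.06), so the TAZKO call was lost. When each HC was weighted equally the direction turned in TAZKO (-0.10) and DKO (-0.14). After thinning WT HCs held 0 Slc1a2 UMIs, against 7 in TAZKO and 6 in DKO. With the floor of 3 counts for WT, the lower bounds were 0.32 in TAZKO and -0.54 in DKO, and the DKO bound shows no direction. The DKO call was also lost with the limits read as UMIs (0.90).

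Rhbg (ENSMUSG00000104445, chr3:88242874-88254709) encodes an ammonium transporter of the HCs that make glutamine. HCs held 8 Rhbg UMIs in WT, 44 in YAPKO, 15 in TAZKO and 45 in DKO, levels of 0.417, 2.60, 1.04 and 1.43 CPM. The relative ratio of 2.24 (1.14 to 3.54) in YAPKO was past 2-fold, as was that of 1.32 (0.22 to 2.62) in DKO. In TAZKO it was 0.70 (-0.63 to 2.15), and TAZKO did not differ from WT or DKO beyond counting error. The DKO call was lost when HCs holding markers of other cell types were left out (0.94), when each HC was weighted equally (0.06), after thinning (0.46) and with an HC rule of 2% (0.71). With the limits read as UMIs the DKO direction turned (-1.49), on 1 UMI.

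The WT values of Oat and Slc1a2 depended on 1 barcode just outside the HC rule, singled out after its values were seen. It held 47201 UMIs and 5785 genes, its share of the 4 HC genes was 2.5%, and 44 of its UMIs came from markers of other cell types. Of these, 42 were from the neutrophil genes S100a8 and S100a9, so the marker rule assigned the barcode to neutrophils. This barcode carried 151 Oat, 47 Slc1a2, 187 Glul, 468 Cyp2e1 and 38 Gulo UMIs. All 2254 WT HCs together carried 56 Oat and 6 Slc1a2 UMIs, fewer than this barcode alone. With it, WT stood at 10.8 CPM of Oat, 2.76 of Slc1a2 and 37.1 of Glul. With the HC rule at 2%, which takes in this barcode, the relative ratios of Oat were 2.79 in YAPKO, 2.08 in TAZKO and 2.41 in DKO, still past 2-fold. Those of Slc1a2 became 0.43 in YAPKO, -1.01 in TAZKO and -0.97 in DKO, so the calls were lost and the direction turned in 2 libraries.

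**Figure D2:**
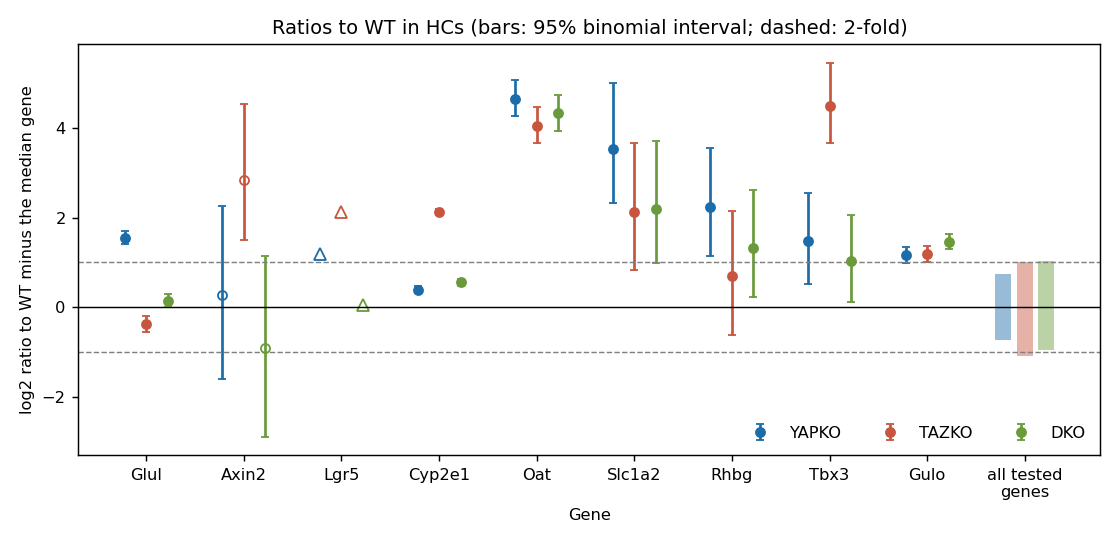
Log2 ratio to WT minus the median gene for each gene in HCs of the 3 knock-out libraries, with 95% binomial intervals. Open circles mark Axin2, which was not called, triangles the lower bounds of Lgr5, and the bars at the right the range from the 5th to the 95th percentile of tested genes; the Oat points lie above 4 in each library.

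Cyp2e1 (ENSMUSG00000025479, chr7:140763739-140774987) encodes a cytochrome P450 that oxidizes ethanol, acetaminophen and other small molecules in the inner lobule. HCs held 2245 Cyp2e1 UMIs in WT, 3431 in YAPKO, 11219 in TAZKO and 7410 in DKO. The Cyp2e1 level was 117 CPM in WT, 203 in YAPKO, 781 in TAZKO and 236 in DKO. TAZKO was the high library, and DKO, YAPKO and WT followed, each step beyond counting error. The relative ratio was 2.11 (2.05 to 2.18) in TAZKO, past 2-fold. It was 0.39 (0.32 to 0.47) in YAPKO and 0.55 (0.48 to 0.62) in DKO, both within 2-fold. The DKO ratio passed 2-fold with an HC rule of 10% (1.88) and with total UMIs alone (1.01).

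Cyp2e1 was detected in 16.8% of WT, 17.7% of YAPKO, 81.5% of TAZKO and 24.8% of DKO HCs. B cells gave 3.60%, 2.32%, 25.6% and 4.08%. Thinned to 2000 UMIs, the HC shares were 13%, 11.4%, 67.9% and 13.6%, and the B cell shares 2.76%, 0.985%, 19.1% and 1.86%. TAZKO was thus highest in both cell types, and in each library HCs exceeded B cells.

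Gulo (ENSMUSG00000034450, chr14:65986786-66009207) encodes gulonolactone oxidase, the last enzyme of vitamin C synthesis in mice. Its HC level was 18.7 CPM in WT, 55.2 in YAPKO, 65.4 in TAZKO and 70.5 in DKO. The 3 knock-out libraries were again above WT, and DKO and TAZKO did not differ beyond counting error. Relative ratios were 1.16 (0.99 to 1.34) in YAPKO, 1.19 (1.01 to 1.37) in TAZKO and 1.46 (1.30 to 1.63) in DKO, so the first 2 were near the threshold. After thinning they were 0.79, 0.92 and 0.86, below 2-fold in each library. In TAZKO the value was 0.86 in HCs of at least 8000 UMIs and -0.13 with an HC rule of 10%. That rule gave 0.91 in YAPKO, and the limits read as UMIs gave 0.70 in DKO.

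Tbx3 (ENSMUSG00000018604, chr5:119670669-119684724) encodes a T-box transcription factor that is a beta-catenin target in liver. HCs held 12 Tbx3 UMIs in WT, 39 in YAPKO, 310 in TAZKO and 55 in DKO, levels of 0.626, 2.31, 21.6 and 1.75 CPM. TAZKO was far above the others, and YAPKO and DKO did not differ beyond counting error. The relative ratio was 4.48 (3.66 to 5.45) in TAZKO, 1.48 (0.52 to 2.55) in YAPKO and 1.03 (0.11 to 2.06) in DKO. Among the alternatives the TAZKO ratio was lowest at 2.32, with an HC rule of 10%. The YAPKO call was lost without the HCs rich in Glul described below (0.74) and with an HC rule of 10% (0.64). The DKO call was lost in several alternatives, among them without the HC that held 3 of its UMIs (0.95), and thinning turned its direction (-0.13).

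Axin2 (ENSMUSG00000000142, chr11:108920349-108950783), a scaffold of the complex that degrades beta-catenin and a feedback target of the pathway, was sparse. HCs held 5 Axin2 UMIs in WT, 7 in YAPKO, 41 in TAZKO and 6 in DKO. TAZKO was above YAPKO beyond counting error, while WT, YAPKO and DKO did not differ. The TAZKO level of 2.85 CPM gave a relative ratio of 2.83 (1.49 to 4.53), which was not called because Axin2 missed the limit of 100 UMIs. Axin2 was more frequent in T cells, at 10.2 CPM in WT, 7.23 in YAPKO, 31.5 in TAZKO and 23.3 in DKO. T cell markers in HCs summed to 11.5, 5.32, 38.0 and 19.97 CPM in the same order, with UMIs of 5 of the 5 markers in each library and Trbc2 the most abundant in 3 of them. Their part in the Axin2 values was not tested.

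Lgr5 (ENSMUSG00000020140, chr10:115450311-115587780), the R-spondin receptor, was the rarest of the 9 genes. HCs held 0 Lgr5 UMIs in WT, 8 in YAPKO, 15 in TAZKO and 7 in DKO. A count of 0 in 2254 WT HCs allows a share of up to 0.133% of cells with a UMI. Taking the floor of 3 counts for WT, Lgr5 was at least 3.03-fold higher in YAPKO, 6.67-fold in TAZKO and 1.42-fold in DKO before the median gene was subtracted. Relative to the median gene these bounds were 2.29-fold, 4.33-fold and 1.04-fold. Lgr5 was found in 0.518% of YAPKO, 0.482% of TAZKO and 0.205% of DKO HCs. B cells gave 0.464%, 0.369% and 0, and in WT 0.959%. For DKO, 0 of 319 B cells allows up to 0.940%. No HC share exceeded the B cell share beyond counting error. B cells held 13 Lgr5 UMIs over the 4 libraries, dendritic cells 5, unassigned barcodes 5 and endothelial cells 4, while KCs, T cells and HSCs held 0. In the most pericentral bin of ordered HCs, described below, lay 7 of the 8 UMIs of YAPKO, 5 of the 15 of TAZKO and 4 of the 7 of DKO. The source of the Lgr5 UMIs in HCs was not tested.

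Other genes of the pathway gave a frame for these 9. Of 10 feedback genes 5 were tested, and 1 was higher in YAPKO, 3 in TAZKO and 2 in DKO, with 0 lower in each library. Of all tested genes 2.6%, 5.09% and 5.3% were higher. The higher genes of this list each held fewer than 100 UMIs in WT HCs and passed the limit through the knock-out libraries, so these counts are no support for a change. Axin2 and Lgr5 belong to this list but were not tested. Tcf7, a TCF/LEF factor, stood at 4 UMIs in WT HCs, 14 in YAPKO, 58 in TAZKO and 36 in DKO, with relative ratios of 1.59 (-0.08 to 3.65), 3.65 (2.22 to 5.57) and 2.0 (0.52 to 3.95). Tcf7 is also a T cell gene, and the T cell markers given above were highest in TAZKO. Rnf43, a ubiquitin ligase that removes Wnt receptors, was at 1.09 CPM in WT, 1.77 in YAPKO, 9.74 in TAZKO and 3.66 in DKO. Its relative ratio was 2.53 (1.86 to 3.27) in TAZKO and 1.28 (0.60 to 2.03) in DKO, both past 2-fold, and 0.30 (-0.56 to 1.18) in YAPKO. Notum, which inactivates Wnt proteins and was named after its values were seen, was past 2-fold higher in TAZKO, at 9.12 CPM against 2.45 in WT. Median relative ratios of the 5 were 0.30, 1.27 and 0.34.

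Of 17 genes of the core pathway 16 were tested, and 0 were past 2-fold in YAPKO or TAZKO. With total UMIs alone 6 were higher in TAZKO. In DKO 1 gene was lower, the Wnt co-receptor Lrp5, at 4.96 CPM against 9.70 in WT, a relative ratio of -1.42 (-1.74 to -1.11), where 4.58% of all tested genes were lower. Ctnnb1, named for encoding beta-catenin itself after its values were seen, was at 68.9 CPM in WT, 118 in YAPKO, 123 in TAZKO and 122 in DKO. Its relative ratios of 0.38 in YAPKO, 0.21 in TAZKO and 0.36 in DKO were within 2-fold. Median relative ratios of the 16 genes were 0.15, 0.22 and 0.09.

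The ligands were read in the cells that make them. Endothelial cells (ECs) held 205 CPM of Wnt2 in WT, 218 in YAPKO, 320 in TAZKO and 226 in DKO. Wnt9b in ECs was at 9.55, 9.99, 12.6 and 15.8 CPM. The R-spondin gene Rspo3 was highest in hepatic stellate cells (HSCs), at 665 CPM in WT, 440 in YAPKO, 620 in TAZKO and 473 in DKO. In ECs Rspo3 was at 62.1, 103, 65.5 and 83.4 CPM, and Rspo1 had 0 UMIs in HCs of each library. HCs held at most 5.29 CPM of Wnt2, so the ligands were found outside HCs.

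Other genes of pericentral HCs were compared as a list of 24, of which 23 were tested. In YAPKO 6 were higher and 1 lower, in TAZKO 15 higher and 0 lower, and in DKO 11 higher and 1 lower. Of all tested genes 2.6%, 5.09% and 5.3% were higher and 2.31%, 6.59% and 4.58% lower, so single calls among 23 genes are near that share. Of the higher genes 4 of 6, 7 of 15 and 6 of 11 held fewer than 100 UMIs in WT HCs and passed the limit through the knock-out libraries. Among the 14 with at least 100 WT UMIs, a choice made after seeing the data, 2, 8 and 5 were higher, and among all 7495 such genes 0.747%, 1.24% and 1.83%. Cyp2c54, a cytochrome P450, was at 10.8 CPM in WT, 22.2 in YAPKO, 208 in TAZKO and 35.3 in DKO. Like Cyp2e1, it was highest in TAZKO, with a relative ratio of 3.64 (3.44 to 3.85). Cyp2a5 was at 2.03, 13.8, 15.0 and 59.7 CPM and thus highest in DKO, with a relative ratio of 4.42 (3.96 to 4.92). The glutathione transferase gene Gstm3 was at 7.92, 69.3, 11.6 and 203 CPM, with relative ratios past 2-fold in YAPKO and DKO and of -0.07 in TAZKO. Cyp7a1, the rate-limiting enzyme of bile acid synthesis, was at 4.54, 9.88, 79.7 and 29.0 CPM. The sulfotransferase gene Sult5a1 was the lower gene in YAPKO and DKO, at 13.2 and 4.99 CPM against 20.3 in WT. Median relative ratios of the 23 were 0.45, 1.54 and 0.75. With total UMIs alone 10, 17 and 15 of the 23 were higher and 0, 0 and 1 lower.

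Of 18 periportal genes, all tested, 0 were higher and 1 lower in YAPKO, 0 higher and 5 lower in TAZKO, and 1 higher and 3 lower in DKO. The shares of all tested genes were 2.6%, 5.09% and 5.3% higher and 2.31%, 6.59% and 4.58% lower, and 1 of 18 genes is near them. Ctsc, a lysosomal protease, was at 126 CPM in WT, 73.9 in YAPKO, 83.6 in TAZKO and 28.5 in DKO. Relative to the median gene it was past 2-fold lower in each, while with total UMIs alone YAPKO and TAZKO were within 2-fold. Apoa4 was at 1038, 1721, 234 and 377 CPM, past 2-fold lower in TAZKO and DKO. Etnppl was the higher gene in DKO, at 285 CPM against 83.7 in WT. Median relative ratios of the 18 were -0.33, -0.45 and -0.28, and those of the 8 genes of the HC check were 0.01, -0.51 and -0.27. With total UMIs alone 3 periportal genes were higher and 1 lower in TAZKO, and 0 were higher or lower in YAPKO.

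In normal liver Glul marks the innermost layer of HCs. Here HCs were called Glul-rich with at least 3 Glul UMIs that made up at least 0.1% of the cell. They numbered 2 of 2254 in WT, 59 of 1159 in YAPKO, 2 of 3112 in TAZKO and 10 of 2925 in DKO. The shares were 0.0887% (exact interval 0.0107 to 0.320), 5.09% (3.9 to 6.52), 0.0643% (0.00778 to 0.232) and 0.342% (0.164 to 0.628). YAPKO stood apart, and DKO was above TAZKO by intervals that overlap. Thinned to 2000 UMIs with 3 Glul UMIs asked for, they were 0 of 1319, 35 of 1015, 2 of 1433 and 9 of 2591. Thinned to 1000 UMIs with 2 asked for, they were 3, 64, 5 and 17, and 1, 3, 78 and 29 HCs were left out. The order of YAPKO over DKO over the others held at each depth.

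The Glul-rich HCs carried 47.2% of all HC Glul UMIs in YAPKO, 31.4% in DKO, 6.38% in TAZKO and 1.71% in WT. In DKO 1 of them held 324 of their 410 Glul UMIs, and without it, left out after seeing the data, the other 9 carried 8.75%. Without all Glul-rich HCs, a choice made after seeing the data, the relative ratio of Glul in YAPKO was 0.68, within 2-fold. In YAPKO they were shallow, with a median of 2557 UMIs against 7013 in other HCs. Their 4 HC genes made up a median of 4.24% of UMIs, against 6.83% in other HCs. Of the 59, 54 lay between 3% and 5%, near the limit of the HC rule, and 0 lay at 10% or more. Mitochondrial UMIs were at a median of 0.0627%, against 1.70% in other YAPKO HCs, and 2 of the 59 held 3 or more UMIs of other cell types. The parts of depth and of the HC rule in the count of 59 were not tested further.

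**Figure D3:**
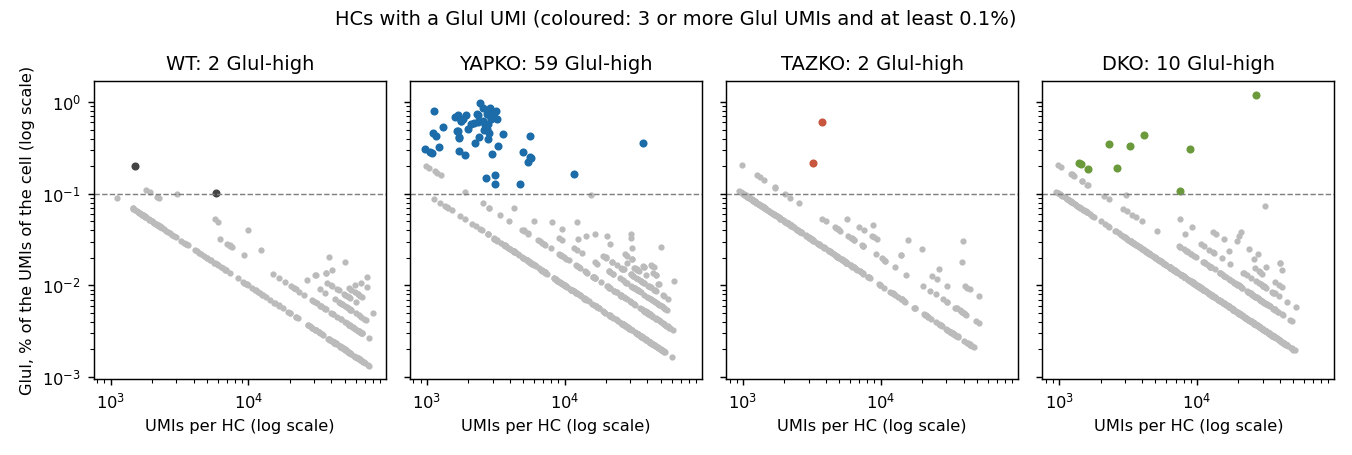
Glul as a percentage of the UMIs of each HC with a Glul UMI, against the UMIs of the HC, both on log scales, in the 4 libraries. Coloured points are the Glul-rich HCs and the dashed line is 0.1%; there are 59 such HCs in YAPKO, against 2, 2 and 10 in WT, TAZKO and DKO.

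HCs of fewer than 3000 UMIs with 3 Glul UMIs are above 0.1% by construction, and 44 of the 59 Glul-rich HCs of YAPKO and 5 of the 10 of DKO were that shallow. With at least 3 Glul UMIs, 2 HCs in WT, 2 in YAPKO, 1 in TAZKO and 3 in DKO were between 0.05% and 0.1%, and 1, 5, 0 and 3 were between 0.1% and 0.2%. HCs with 2 Glul UMIs at 0.1% or more, counted after seeing the data, numbered 2 in WT, 6 in YAPKO, 6 in TAZKO and 10 in DKO, of which 1, 6, 3 and 5 had an Oat UMI. In YAPKO the lowest share among the 59 was 0.127%, the median 0.482% and the highest 0.982%. Barcodes below the HC rule that met the Glul limits and held at least 3 Cyp2e1 UMIs numbered 1 in WT, 7 in YAPKO, 2 in TAZKO and 4 in DKO. The WT barcode is the deep one described above.

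The other genes of the set were high in the same HCs. In YAPKO the 59 held 1218 Oat UMIs, a level of 6240 CPM against 25.0 in other HCs, a log2 ratio of 7.97 (7.80 to 8.13). Every one of the 59 had an Oat UMI, and together they carried 74.5% of the Oat UMIs of YAPKO HCs. Without them the relative ratio of Oat in YAPKO was 2.83, still past 2-fold. Slc1a2 was at 282 CPM against 1.5, a log2 ratio of 7.56 (6.85 to 8.30), and 23 of the 59 had a UMI. Cyp2e1 was at 2859 CPM against 172, a log2 ratio of 4.06 (3.92 to 4.19), and 58 of the 59 had a UMI. Gulo was at 533 CPM against 49.6, a log2 ratio of 3.42 (3.12 to 3.72). Of the 59, 1 HC of 37271 UMIs held 50 of the 104 Gulo, 150 of the 558 Cyp2e1 and 18 of the 55 Slc1a2 UMIs. Without it, left out after seeing the data, Gulo was at 342 CPM, a log2 ratio of 2.79 (2.36 to 3.18), and the ratios were 8.14 for Oat, 7.29 for Slc1a2 and 3.91 for Cyp2e1. These 4 genes were thus enriched in 1 class of cells that was picked by Glul alone.

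The rarer genes had few UMIs there. Tbx3 gave 16 UMIs in the 59 HCs and 23 in the 1100 others, Rhbg 7 and 37, Axin2 4 and 3, and Lgr5 2 and 6. The log2 ratio was 5.90 (4.88 to 6.88) for Tbx3 and 4.02 (2.61 to 5.20) for Rhbg, which was 3.52 (1.57 to 4.99) without the HC of 37271 UMIs. Axin2 gave 6.83 (4.27 to 9.61) and Lgr5 4.83 (1.49 to 7.32). All 4 intervals lay above 0. The periportal gene Cyp2f2 went the other way, at 61.5 CPM against 1350, a log2 ratio of -4.46 (-5.41 to -3.65). Alb was also lower, with a log2 ratio of -1.99.

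In DKO much of the Glul-rich class was 1 HC of 26864 UMIs, which held 324 of its 410 Glul and 345 of its 463 Oat UMIs. Over all 10, Oat was at 7710 CPM against 65.6, a log2 ratio of 6.88 (6.73 to 7.02), with UMIs in 6 of the 10. Slc1a2 gave 8.56 (7.77 to 9.33), Cyp2e1 4.30 (4.12 to 4.48) and Gulo 3.30 (2.82 to 3.75). Cyp2f2 was lower, at -2.83 (-4.45 to -1.61), and Alb at -1.08. Without the deep HC, left out after seeing the data, the other 9 gave 5.76 (5.48 to 6.03) for Oat, with UMIs in 5 of the 9, and 6.30 (3.96 to 7.96) for Slc1a2, on 3 UMIs. Cyp2e1 gave 2.44 (1.96 to 2.88), Gulo 1.61 (0.29 to 2.65), Cyp2f2 -1.97 (-3.60 to -0.75) and Alb -1.13. In TAZKO the 2 Glul-rich HCs held 31 Oat and 37 Cyp2e1 UMIs, and in WT the 2 held 5 and 22. Cyp2e1 was at 5286 CPM in the TAZKO pair against 778 in other HCs, a log2 ratio of 2.76 (2.26 to 3.23). Those pairs are too few to describe a class.

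Genes most like Glul were sought by the lowest log2 ratio of Glul-rich to other HCs over the libraries. Eligible genes had 20 or more UMIs in the Glul-rich HCs of every library used, and 1 UMI was added to all counts. Over all 4 libraries 26 genes were eligible, and the first 10 were Cyp2e1, Gsta3, Cyb5a, Akr1c6, Gstm1, Apoc4, Apoa2, Rbp4, Mgst1 and Fth1. Their lowest log2 ratio ran from 2.80 for Cyp2e1 to 0.23 for Fth1. The 2 cells each of WT and TAZKO limited this list to abundant transcripts. Over YAPKO and DKO alone, chosen after seeing the data, 432 genes were eligible. The first 10 were then Slc1a2 at 7.53, Oat at 6.88, Cyp2c37 at 5.71, Gstm2 at 5.32, Lect2, Cyp2c54, Cyp2e1, Cyp2c50, Cyp1a2 and Gulo at 3.33. Of these 10, 4 belong to the 9 genes of the set. Without the deep DKO HC 243 genes were eligible. Then the order was Oat at 5.77, Mir6236, Rgn, Cyp2e1 at 2.48, Hpgd, CT010467.1, Acaa1b, Gsta3, Akr1c6 and Aldh1a1 at 1.17. Slc1a2 and Gulo had too few UMIs.

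The position of HCs along the lobule was read from 7 pericentral and 8 periportal genes that include none of the 9. HCs with at least 20 UMIs of these genes were ordered within their library by the pericentral share and divided into 5 bins. They numbered 498 in WT, 687 in YAPKO, 746 in TAZKO and 1756 in DKO, with median depths of 25207, 19451, 6855 and 11544 UMIs. Pericentral UMIs were absent from 66.7% of ordered HCs in WT, 52.0% in YAPKO, 10.5% in TAZKO and 19.4% in DKO. The lower 3 bins of WT therefore hold tied cells. HCs with a majority of pericentral UMIs made up 3.82% (2.31 to 5.89) of ordered HCs in WT, 7.13% (5.32 to 9.32) in YAPKO, 18.0% (15.3 to 20.9) in TAZKO and 4.78% (3.83 to 5.89) in DKO. Because these shares differ, a bin covers a different range of the pericentral share in each library. Gstm3, Cyp2a5 and Ctsc, which are ordering genes, themselves differed in level between libraries. Whether the sampled positions or the levels of the ordering genes differed was not tested, here or with the common limits below. Of the 59 Glul-rich HCs of YAPKO 11 were ordered and 48 had too few UMIs of the ordering genes.

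Cyp2e1 rose toward the pericentral end in each library. In the most periportal bin it was at 2.34 CPM in WT, 2.43 in YAPKO, 14.1 in TAZKO and 6.23 in DKO. In the most pericentral bin it was at 681 (650 to 713), 1216 (1172 to 1260), 2884 (2794 to 2978) and 1171 (1142 to 1201) CPM. In TAZKO the median depth was 23982.5 UMIs in the most periportal bin and 5240 in the most pericentral bin. The same medians were 16604.5 and 18554 in WT, 16032 and 12630 in YAPKO, and 8161 and 10546 in DKO. The part of depth in the rise was not tested. With limits common to the 4 libraries the most pericentral bin held 24 HCs in WT, 66 in YAPKO, 390 in TAZKO and 228 in DKO. Cyp2e1 there was at 2258 CPM in WT, 2144 in YAPKO, 1827 in TAZKO and 1600 in DKO. WT and YAPKO did not differ beyond counting error. In WT 1 HC held 328 of the 1657 Cyp2e1 UMIs, and without it, left out after seeing the data, WT was at 1958 CPM. In this bin TAZKO thus no longer had the highest Cyp2e1 level.

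Oat was read in the same bins. In the most pericentral bin it was at 6.45 CPM (3.76 to 10.3) in WT, 277 (256 to 299) in YAPKO, 341 (310 to 374) in TAZKO and 333 (317 to 349) in DKO. In the most periportal bin it was at 0.780, 3.47, 1.36 and 3.69 CPM. Oat thus rose along the axis in each library. The WT value rests on 17 UMIs. With the limits common to the 4 libraries Oat was at 20.4 CPM (11.4 to 33.7) in WT, 532 in YAPKO, 193 in TAZKO and 460 in DKO. The deep WT barcode just outside the HC rule would fall in the most pericentral bin. With it, added after seeing the data, WT was at 63.7 CPM within its own limits and 213 (181 to 247) within the common ones, the latter not different from TAZKO beyond counting error.

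Glul in the most pericentral bin was at 36.4 CPM (29.5 to 44.5) in WT, 214 (196 to 233) in YAPKO, 84.2 (69.3 to 101) in TAZKO and 103 (94.3 to 112) in DKO. In the most periportal bin it was at 29.2 (23.0 to 36.7), 47.6, 10.9 and 24.9 CPM. The rise was within counting error in WT and beyond it in the knock-out libraries. In DKO 324 of the 536 Glul UMIs of the pericentral bin came from the deep Glul-rich HC, and without it, left out after seeing the data, the level was 40.9 CPM (35.5 to 46.8), near that of WT. Gulo went from 14.8 to 58.8 CPM in WT, from 22.9 to 216 in YAPKO, from 10.6 to 227 in TAZKO and from 22.6 to 215 in DKO. Tbx3 at the pericentral end was at 3.04 CPM in WT, 10.3 in YAPKO, 56.2 in TAZKO and 6.71 in DKO. Slc1a2 there had 0 UMIs in WT and was at 20.2, 14.4 and 10.5 CPM in the others. Of the 19 Slc1a2 UMIs of TAZKO in that bin 18 came from 1 HC. Without the HC with the most Slc1a2 the levels were 12.95, 0.782 and 6.17 CPM. Within their own limits, and without the deep WT barcode, each of these 4 genes was higher at the pericentral end of the 3 knock-out libraries than in WT. For Tbx3 in DKO this was within counting error, as it was without 1 HC each for Glul in DKO and Slc1a2 in TAZKO. With the barcode, added after seeing the data, WT was at 107 CPM of Glul (95.2 to 121) and 17.8 of Slc1a2 (13.1 to 23.7). Both levels were above TAZKO and DKO, but the intervals overlap for both genes in both libraries. WT was then at 72.8 CPM of Gulo and 4.17 of Tbx3.

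With the common limits fewer differences held. Glul was at 58.6 CPM in WT, 340 in YAPKO, 59.1 in TAZKO and 133 in DKO, where it was 42.5 without the deep HC. Gulo was at 162, 322, 143 and 262 CPM, Tbx3 at 10.9, 17.2, 44.9 and 8.44, and Slc1a2 at 0, 39.3, 7.31 and 15.5. Without the HC with the most Slc1a2 the last 3 levels were 25.3, 1.06 and 9.07. With the deep WT barcode added, WT was at 294 CPM of Glul, 60.2 of Slc1a2, 201 of Gulo and 14.1 of Tbx3. Leaving out an HC and adding the barcode were chosen after seeing the data.

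**Figure D4:**
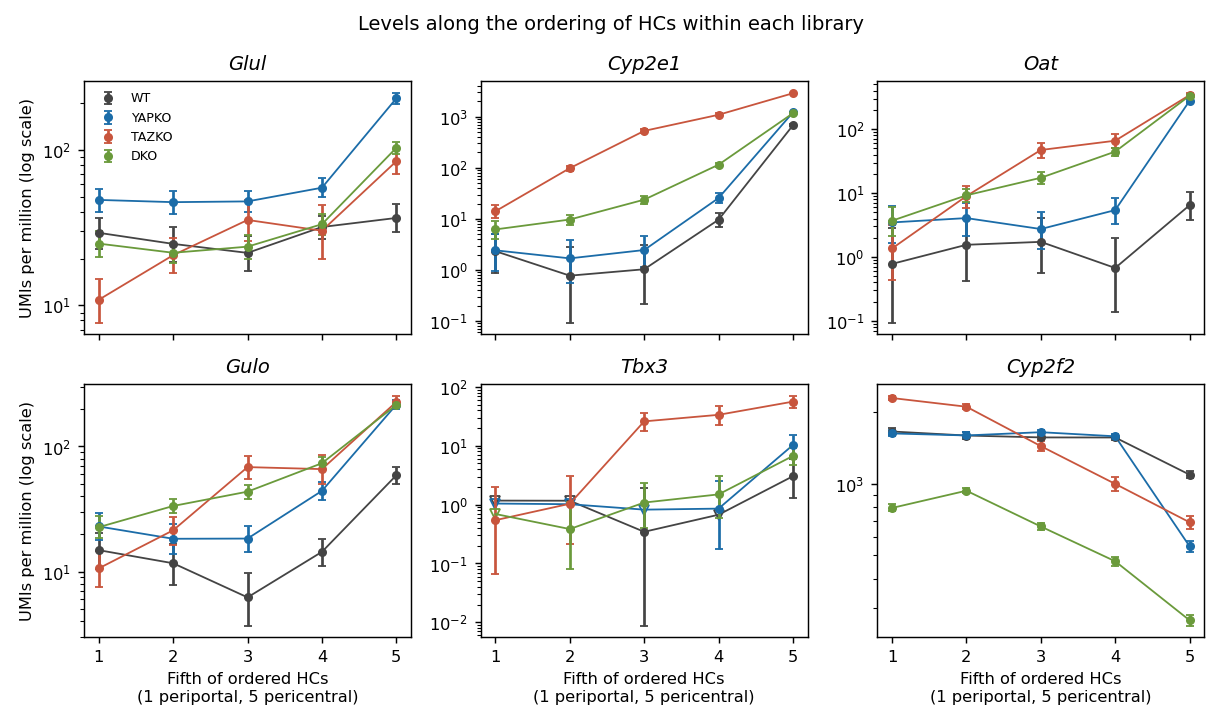
Level of 5 genes of the set and of periportal Cyp2f2 in 5 bins of ordered HCs in each library, in CPM on a log scale with 95% Poisson intervals; open triangles mark the floor of 3 counts where a bin held 0 UMIs. Cyp2e1 reached 681 to 2884 CPM in the most pericentral bin, and Oat 277 to 341 in the knock-out libraries and 6.45 in WT.

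Cyp2e1, Tbx3, Gulo and Oat were also found in barcodes that were not HCs, to an extent that differed between libraries. Cyp2e1 was counted against 10000 UMIs of Alb, Apoa1, Ttr and Apoc3, since free RNA from one source keeps its genes in one ratio. In TAZKO this ratio was 189 in HCs under 2500 UMIs, 186 in barcodes under 500 genes, 176 in ECs, 175 in Kupffer cells (KCs) and 171 in B cells. TAZKO HCs of at least 8000 UMIs gave 52.1. Shallow TAZKO HCs thus had the ratio of barcodes under 500 genes, and deep ones a lower ratio. WT gave 13.2 in deep HCs, 15.8 in shallow HCs, 13.2 in barcodes under 500 genes and 21.1 in ECs. YAPKO gave 24.7 in deep HCs, 86.6 in shallow ones and 55.5 in barcodes under 500 genes, and DKO 35.1, 54.4 and 104.

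Tbx3 followed the same course in TAZKO. The Tbx3 ratio was 5.87 in HCs under 2500 UMIs, 5.83 in barcodes under 500 genes and 6.37 in ECs, against 1.11 in HCs of at least 8000. Gulo gave 13.6 in shallow HCs, 13.4 in barcodes under 500 genes and 5.71 in deep HCs of TAZKO. Oat gave 15.4 in shallow HCs, 13.9 in barcodes under 500 genes and 5.64 in deep HCs there. In WT, YAPKO and DKO the Oat ratio was 0.983, 219 and 34.9 in shallow HCs, 1.34, 49.5 and 67.9 in barcodes under 500 genes and 0.179, 3.99 and 10.9 in deep HCs. WT barcodes under 500 genes held 8.16 CPM of Oat, above the 2.92 of WT HCs. The part of free RNA in the levels of these genes was not tested. In HCs of at least 8000 UMIs the Cyp2e1 level of TAZKO was above WT by 1.90 (1.82 to 1.98) on the log2 scale before the median gene was subtracted. Tbx3 was above WT by 3.97 (2.98 to 5.16) in the same cells, Oat by 4.90 (4.31 to 5.56) and Gulo by 1.34 (1.12 to 1.57). Relative to the median gene, these deep TAZKO HCs gave 1.41 for Cyp2e1, 3.49 for Tbx3 and 4.41 for Oat, past 2-fold, and 0.86 for Gulo.

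**Figure D5:**
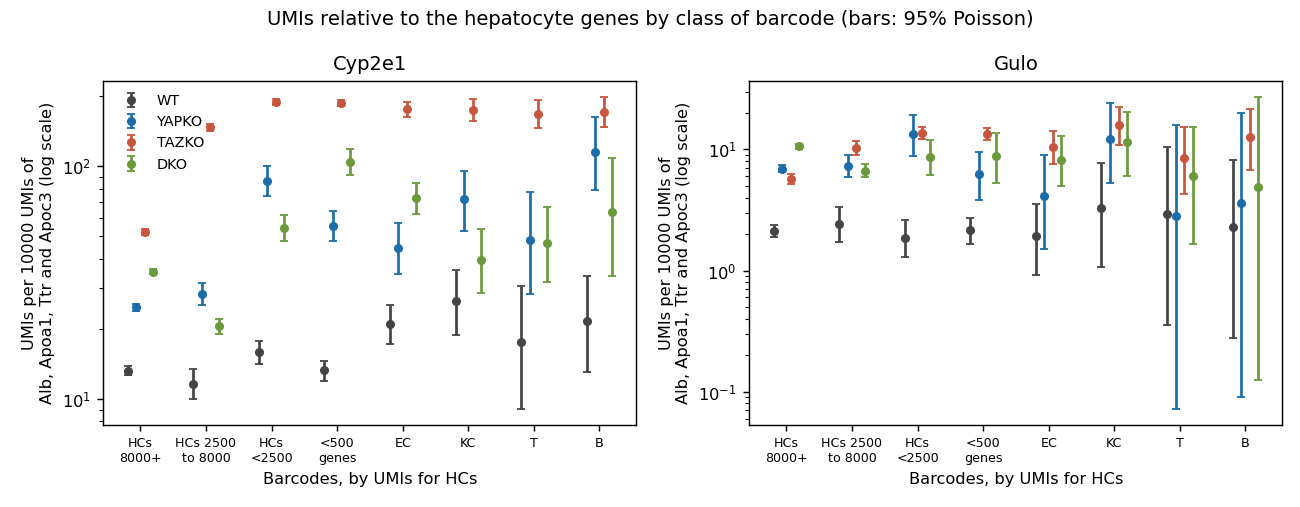
UMIs of Cyp2e1 and Gulo per 10000 UMIs of Alb, Apoa1, Ttr and Apoc3, on a log scale with 95% Poisson intervals, in HCs by depth, barcodes under 500 genes and 4 other cell types of each library. In TAZKO Cyp2e1 stands at 189 in HCs under 2500 UMIs and 186 in barcodes under 500 genes, against 52.1 in HCs of at least 8000 UMIs.

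Some genes of the set were expressed outside HCs. Glul was higher in ECs, at 339 CPM in WT, 474 in YAPKO, 409 in TAZKO and 465 in DKO, than in the HCs of the same libraries. KCs held 294 to 385 CPM of Glul over the 4 libraries and HSCs 173 to 333. Slc1a2 was at 22.3 to 34.6 CPM in KCs and 0 in B cells, and Oat was at 178 to 241 CPM in HSCs. Cyp2e1 in ECs was at 8.13, 4.24, 76.7 and 13.1 CPM in WT, YAPKO, TAZKO and DKO, below the HCs of each. In neutrophils Cyp2e1 was at 530, 4.86, 113 and 32.8 CPM, so WT neutrophils were above WT HCs, and 468 of their 474 UMIs came from the deep WT barcode described above. That barcode also held all 47 Slc1a2 UMIs and 151 of the 185 Oat UMIs of WT neutrophils. Rhbg had at most 5 UMIs over the 4 libraries in any of the 10 other cell types.

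Markers of those cells were present in HCs. The 7 EC markers summed to 101 CPM in WT HCs, 85.3 in YAPKO, 203 in TAZKO and 89.0 in DKO, with all 7 found in each and Clec4g or Ptprb the most abundant. The 5 KC markers summed to 73.9, 73.9, 107 and 62.1 CPM, all 5 found in each, with Clec4f or Cd5l the most abundant. The 5 neutrophil markers summed to 237, 163, 45.1 and 41.7 CPM, all 5 found in each, with S100a9 the most abundant. The part of these cells in the HC values was not tested. Leaving out HCs with 3 or more UMIs of other cell types removed 319 HCs in WT, 305 in YAPKO, 357 in TAZKO and 382 in DKO. The relative ratio of Glul in YAPKO was then 2.23, that of Oat in YAPKO 5.32 and that of Cyp2e1 in TAZKO 2.07, each still past 2-fold.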

How the data were processed

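The deposited files give raw UMI counts per gene and barcode, which the authors made with Cell Ranger on mm10; its version is 6.0.1 per the labels and 4.0.0 per the matrix headers. Genes were found by symbol in the deposited feature lists. The 9 genes and the comparison lists were chosen with earlier results of these data known. The limits of 500 and 6000 were read as genes per barcode. No doublets were called. Other cell types were assigned where their markers gave at least 3 UMIs and at least 2 of 3 marker UMIs, in barcodes below the HC rule. UMIs were summed over the HCs of a library, and levels were not divided by gene length because 3' UMIs do not depend on it. With 1 library per genotype no p-value was computed. Genes were named by rule: the 9 genes, list genes past 2-fold with the largest ratios (at most 4 per list and library), and the 10 genes most like Glul. The calculation was tested on simulated data. Python 3.11.15, numpy 2.4.6, scipy 1.17.1, pandas 2.3.3 and matplotlib 3.10.9 were used. Alternatives changed the HC rule, the mitochondrial limit (20%), the reading of the limits, the cells kept, their weights and depth, the scaling, the UMI limit (20), the Glul limit, the ordering genes and the bins. Added after seeing the data were HCs of at least 8000 UMIs, HCs without the Glul-rich ones, an HC rule of 2%, likeness over 2 libraries, values without the HC that held the most UMIs of a gene, bins with 1 WT barcode added, and list counts with at least 100 WT UMIs.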

Additional observations from a re-analysis of the deposited data

How the results depend on the processing

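Of the alternative relative ratios of the 9 genes, called or not, 195 stayed within the counting interval (for Lgr5, within 1) and 101 moved out of it. A further 8 were called ratios that fell below 0. Values that were not called changed sign in 17 further cases, which are among the 195 and 101. These were 7 of Glul, 5 of Axin2, 4 of Lgr5 and 1 of Rhbg. The main Lgr5 values are lower bounds over 0 WT UMIs, so its 4 cases show no change of direction. Thinned WT HCs also held 0 Axin2 UMIs, so the thinned Axin2 values are bounds too. The 16 ratios called higher gave 187 alternative values, of which 179 were above 0 and 154 at least 1. These values include lower bounds where WT held 0 UMIs, as for Slc1a2 after thinning. Most of the 16 ratios belong to Oat, Slc1a2, Rhbg and Tbx3. With 56, 6, 8 and 12 UMIs in WT HCs, these genes passed the UMI limit for testing through the knock-out libraries. The alternatives also reuse the same WT library, so the tally is no support for a change. Called ratios fell below 0 for Gulo in TAZKO with an HC rule of 10% (-0.13) and Tbx3 in DKO after thinning (-0.13). Rhbg did so in DKO with the limits read as UMIs (-1.49). Slc1a2 did so in TAZKO (-0.10) and DKO (-0.14) with equal weights, and in TAZKO (-1.01) and DKO (-0.97) with a rule of 2%. The last of the 8 was Slc1a2 in DKO after thinning (-0.54), a lower bound over 0 WT UMIs that shows no reversal. The cause of the reversals was not tested. Of the tested genes of the set, in the order YAPKO, TAZKO and DKO, 0, 1 and 2 were higher with a rule of 10%, which left 3 tested, and 3, 3 and 1 after thinning, which left 5. In DKO 1 was higher with limits as UMIs, 2 with equal weights and 2 with a rule of 2%. Without Glul-rich HCs 3 were higher in YAPKO and 3 in DKO. Genes higher in YAPKO, TAZKO and DKO numbered 134, 214 and 284 with a rule of 10%, 817, 2705 and 1491 with total UMIs alone, and 813, 1395 and 1247 with at least 20 UMIs. With limits as UMIs 1031 were higher in TAZKO and 354 in DKO, with equal weights 611 in YAPKO and 1144 in TAZKO, and after thinning 295 in DKO. Genes lower numbered 135, 387 and 281 with a rule of 10%, 572, 1823 and 880 with limits as UMIs, 799, 1968 and 999 with equal weights, 109, 187 and 237 with total UMIs alone, and 864, 1350 and 1050 with at least 20 UMIs. In YAPKO 151 were lower in HCs of at least 8000 UMIs and 518 with a rule of 2%. Fewer genes were tested with a rule of 10% (6695) and after thinning (7126), and more with at least 20 UMIs (14719). The share of Glul-rich HCs was 0 in each library with a rule of 10%. In HCs of at least 8000 UMIs it was 0 in WT and TAZKO, 0.383% in YAPKO and 0.164% in DKO. Thinned to 2000 UMIs it was 0 in WT and 3.45% in YAPKO, and without HCs holding other markers 6.67% in YAPKO. Cyp2e1 in the most pericentral bin was at 2258 CPM in WT, 2144 in YAPKO, 1827 in TAZKO and 1600 in DKO with common limits, and at 581 in WT, 1154 in YAPKO and 2760 in TAZKO without Cyp2f2 and Cyp2c29. With a rule of 10% or after thinning, ratios could not be computed for several sparse genes, among them Lgr5 and, with the rule of 10%, Axin2, Slc1a2 and Rhbg. No paired analysis was possible because each group has 1 library. Low counts limit what can be read for Axin2, Lgr5, Slc1a2 and Rhbg, since WT HCs held at most 8 UMIs of each.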
